A study of Mus musculus with 11 samples.

Results

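The genes described here mark the cells of brain blood vessels and of the space around them. They are 36 mouse genes, chosen by symbol from a written list, of 24411 gene symbols in the count files. No measured value served as the rule, but earlier results of these data were known when the list was chosen. By role, 20 are endothelial, 6 pericyte, 3 smooth muscle and 7 perivascular fibroblast genes. All 36 symbols were found in all 11 RNA sequencing libraries. The libraries came from mice of 8 to 10 weeks, wild type or labelled Bmal1-/-, the gene listed as Arntl, in a study of circadian clocks in the corpus callosum and subventricular zone (SVZ) around demyelination. Tissue of the corpus callosum, the main myelinated tract between the hemispheres, gave 3 wild-type libraries and 2 labelled Bmal1-/-. Primary SVZ neurospheres, spheres of neural progenitors grown in suspension, gave 3 libraries of each genotype after 1 week in medium with EGF (20 ng/ml) and heparin (2 ug/ml). No demyelinating agent is named for these libraries, and the sources used here do not give strain, hour of collection or the kind of Bmal1 allele. Nor do they say whether the replicates of a group are separate animals or cultures, so a p-value weighs a difference only against replicate spread, and that spread may be technical.

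Endothelial cells line the vessel and, in the brain, form the blood-brain barrier: tight junctions seal the gaps between them, efflux pumps send drugs back to the blood, and vesicle traffic is held low. Pericytes cover capillaries and depend on PDGF-B from the endothelium, smooth muscle rings arteries and arterioles, and fibroblasts lie around larger vessels and in the meninges. Neurosphere medium favours neural progenitors over vascular cells. BMAL1 pairs with CLOCK at E-box sequences, and other clock proteins act through the D-box and the ROR element.

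Promoter sequences are shown for 4 genes that the results below turn on or that carry a clock motif, so that the letters can be read beside the counts. They are from RefSeq on GRCm38.p6, the assembly of mm10, 5′ to 3′ on the gene's strand, from 250 bases before the start base to the 30th base from it. Capitals mark the motif named with each.
Gkn3, chr6:87388906-87389185, minus strand, D-box TTATGNAA in capitals: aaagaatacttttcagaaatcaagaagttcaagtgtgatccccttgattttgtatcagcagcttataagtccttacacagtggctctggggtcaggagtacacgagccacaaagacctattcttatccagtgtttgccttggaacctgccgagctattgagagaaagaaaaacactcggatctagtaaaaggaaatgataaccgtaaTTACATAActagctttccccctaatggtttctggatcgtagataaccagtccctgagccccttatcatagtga
Slco1c1, chr6:141524104-141524383, plus strand, E-box CACGTG in capitals: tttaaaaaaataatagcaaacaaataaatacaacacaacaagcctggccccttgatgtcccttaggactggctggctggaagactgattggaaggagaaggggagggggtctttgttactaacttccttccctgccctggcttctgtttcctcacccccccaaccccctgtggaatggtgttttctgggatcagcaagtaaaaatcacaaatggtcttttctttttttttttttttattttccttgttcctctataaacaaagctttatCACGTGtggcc
Myl9, chr2:156775214-156775493, plus strand, CArG box in capitals: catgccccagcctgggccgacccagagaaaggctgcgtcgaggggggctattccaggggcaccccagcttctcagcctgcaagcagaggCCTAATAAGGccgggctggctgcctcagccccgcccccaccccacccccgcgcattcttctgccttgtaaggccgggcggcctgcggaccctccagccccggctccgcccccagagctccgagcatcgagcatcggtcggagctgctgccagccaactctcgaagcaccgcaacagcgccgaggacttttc
Acta2, chr19:34255344-34255623, minus strand, no CArG box of the searched form: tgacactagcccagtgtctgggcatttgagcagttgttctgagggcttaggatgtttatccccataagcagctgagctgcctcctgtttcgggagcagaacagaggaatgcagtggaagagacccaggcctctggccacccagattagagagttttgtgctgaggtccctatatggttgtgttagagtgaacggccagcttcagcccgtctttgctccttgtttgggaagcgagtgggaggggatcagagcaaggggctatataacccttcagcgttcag
The CArG box is the sequence bound by serum response factor, a regulator of smooth muscle genes. Only the strict form CCWWWWWWGG, with W for A or T, was searched, so stretches 1 base off were not counted. The Acta2 sequence above holds ccctatatgg and ccttgtttgg, each 1 base off that form. With the start base as position 0, the Gkn3 match lay at -43 to -36, the Slco1c1 match at 19 to 24 and the Myl9 match at -161 to -152. Promoters of 25 of the 36 genes, 31 promoters in all, were searched on both strands over 300 bases. The E-box was in 1 of the 31 and in 7.15% of all 32851 RefSeq promoters, the D-box in 1 and in 3.38%, and the CArG box in 1 and in 1.63%. The ROR element was in none and in 0.219% of all. These matches describe letters and do not show a bound site.

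Gene counts summed to 17450270 to 19717848 per library, and replicates differed beyond sampling noise. Levels are in CPM, a gene's reads scaled to the size of its library, after TMM scaling over all 11 libraries. A gene without a count may lie at up to 3 counts, which is 0.131 to 0.136 CPM in neurospheres and 0.202 to 0.211 CPM in the callosum. Counts of Arntl did not separate the genotypes (log2 fold change 0.03 ± 0.14, SE, in the callosum, edgeR adjusted p = 0.943; -0.01 ± 0.17 in neurospheres, adjusted p = 0.983). Which exons the allele removes is not given, so this count checks little, and Bmal1-/- below is the label. Its known target Nr1d2 had log2 fold changes of -2.80 ± 0.25 in the callosum (adjusted p = 0.00117) and -4.11 ± 0.20 in neurospheres (adjusted p = 0.000403), and Dbp of -2.87 ± 0.13 (adjusted p = 4.91e-05) and -1.76 ± 0.28 (adjusted p = 0.218). Bmal1-/- neurosphere replicate 1 stood apart, with 22.6% unmapped reads against 13.7% to 16.2% in the other neurosphere libraries and summed microglial markers of 200 CPM against 44.3 to 83.7. Wild-type callosum replicate 2 held the highest summed striatal neuron markers, 3919 CPM against 1195 to 2273 in the other 4 callosum libraries.

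The tissue libraries carried endothelial and pericyte RNA clearly, and hardly any RNA of the fibroblast genes Dcn, Lum and Ogn. Levels between genes are compared as CPM per kilobase of the longest transcript, here in wild-type callosum. Vitronectin, Vtn, a pericyte-made matrix protein, stood highest at 46.7 CPM per kb, then Ly6c1 at 39.7 and Cldn5, the main claudin of the barrier, at 34.9. The ranges over libraries of these 3 overlapped (41.2 to 49.9, 32.0 to 45.5 and 29.5 to 41.5), so their order is not resolved. Eng, a TGF-beta co-receptor, followed at 21.3 and Myl9, the regulatory light chain of smooth muscle myosin, at 15.6, and their ranges overlapped too. At the other end stood the proteoglycans Dcn at 0.160, Ogn at 0.0271 and Lum at 0.00943 CPM per kb. Lum had 1 count and Ogn 3 counts over the 5 callosum libraries, so the perivascular fibroblast label rests in the tissue on Mgp, Foxc1, Slc6a13 and Bgn. The share of 50-base stretches in common with another gene was 36.7% for Ly6c1 (with Ly6c2), 17% for Abcb1a (with Abcb1b), 10.0% for Ly6a (with Ly6c1) and 7.05% for Egfl7 (with Gm20532), so their counts are uncertain. The libraries did not keep strand, and Eng, Egfl7, Abcb1a, Abcc9 and Tagln overlap a gene on the opposite strand.

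In the callosum, the question was which vessel genes differ with the Bmal1 label. Gkn3, a secreted protein known as a marker of arterial endothelium in mouse brain, fell in the libraries labelled Bmal1-/-, and it was the only 1 of 33 tested vessel genes past the threshold (edgeR quasi-likelihood test, adjusted p under 0.05 over all genes). No vessel gene rose. Over all 14198 genes tested, 0.387% were lower and 0.521% higher at that threshold. Over the 33 genes the median log2 fold change was -0.17, with 11 above 0 and 22 below, beside -0.01 over all genes. That median rested on single libraries: it was -0.03 (15 above 0, 18 below) without wild-type replicate 2, -0.04 (15 above, 19 below) without Bmal1-/- replicate 1 and -0.38 without Bmal1-/- replicate 2. Dcn, Lum and Ogn had too few counts to be tested.

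Gkn3 (chromosome 6, 87383319 to 87388935) had 4.52, 4.84 and 2.77 CPM in wild-type callosum and 0.493 and 0.280 CPM in callosum labelled Bmal1-/-. These are 65, 72 and 40 counts against 7 and 4, so the 3 wild-type libraries all lay above both others. The log2 fold change was -3.34 ± 0.43 (SE; 10.2-fold lower; edgeR adjusted p = 0.00933). The adjusted p was 2.84e-06 to 0.0645 over 11 alternatives. The call ended without Bmal1-/- replicate 1 (log2 fold change -3.79, adjusted p = 0.0607), where 1 library is left in that group and its spread is taken from the wild type, and in 1 model of all 11 libraries (adjusted p = 0.0645). In bulk tissue, fewer cells of a type and less RNA per cell cannot be told apart. The 9 other arterial endothelial genes tested had a median of -0.03, 4 above 0 and 5 below, and none passed the test. They ran from -0.99 to 0.76, and 1 was lower without overlap, beside 18.7% of all genes, and none higher. Among these 9, Sox17, an arterial transcription factor, was picked after its values were seen. It stood at 9.52, 10.7 and 6.30 CPM in wild type and 7.47 and 13.9 CPM in Bmal1-/-, so its groups overlapped.

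**Figure D1:**
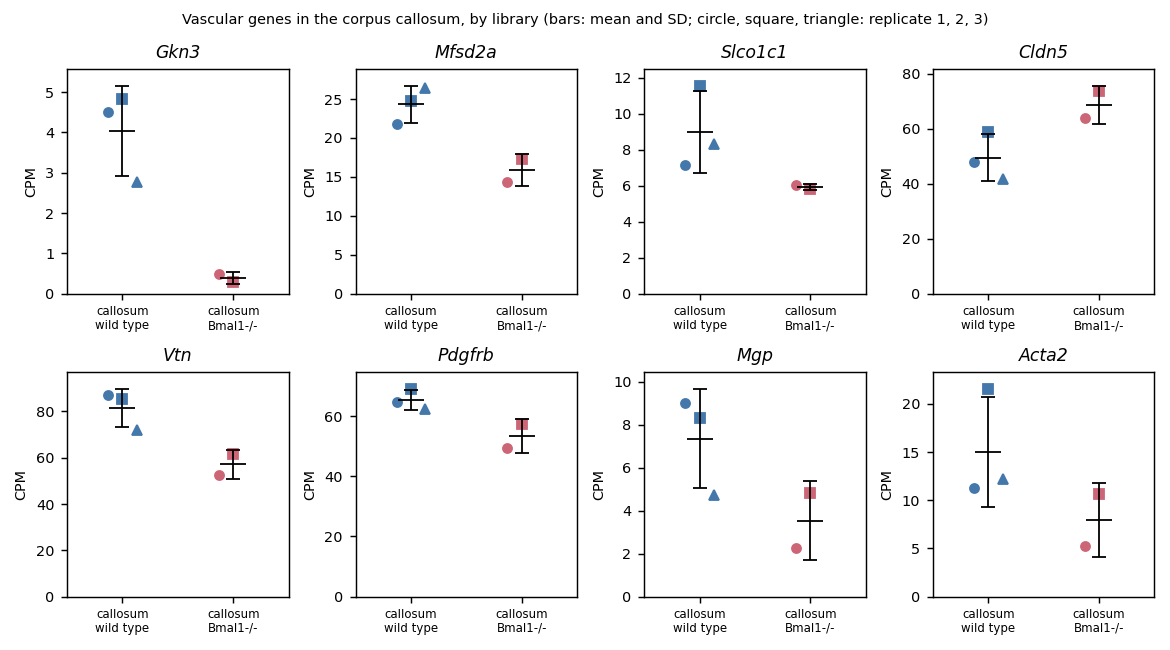
CPM (vertical axes, from 0) of 8 vessel genes in the 3 wild-type and 2 Bmal1-/- callosum libraries, with the mean and SD. Gkn3 spans 2.77 to 4.84 CPM in the wild-type points and 0.280 to 0.493 in the Bmal1-/- points, while Cldn5 spans 41.8 to 58.7 and 63.8 to 73.5.

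The other 19 endothelial genes split by sign, 10 above 0 and 9 below. Cldn5 stood at 47.9, 58.7 and 41.8 CPM in wild type and 63.8 and 73.5 CPM in Bmal1-/- (0.49 ± 0.15, adjusted p = 0.217). Egfl7, a secreted vessel matrix factor, stood at 23.3, 27.1 and 20.7 against 31.7 and 27.9 CPM. Both groups were apart for these 2 genes, yet neither passed the test. Eng (73.1, 84.8 and 61.0 against 84.1 and 112 CPM) and Vwf, the clotting protein von Willebrand factor (29.7, 37.3 and 26.2 against 34.9 and 49.9 CPM), had overlapping groups. With an unadjusted p under 0.05, 4 vessel genes were higher (Cldn5, Eng, Vwf and Egfl7) and 7 lower (Gkn3, Mfsd2a, Vtn, Mgp, Slco1c1, Pdgfrb and Acta2), beside 6.47% and 7.4% of all genes.

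Mfsd2a and Slco1c1, carriers of brain endothelium, lay below 0. Both were also present in wild-type neurospheres, averaging 31.9 and 4.92 CPM, where Cldn5 averaged 0.03 CPM. Which cells made them in the callosum was not tested. Mfsd2a, which carries docosahexaenoic acid into the brain, stood at 21.8, 24.7 and 26.5 CPM in wild type and 14.4 and 17.3 CPM in Bmal1-/- (-0.60 ± 0.15, adjusted p = 0.122). Slco1c1, the thyroid hormone carrier with the E-box shown above, stood at 7.16, 11.6 and 8.31 CPM against 6.06 and 5.81 CPM (-0.59 ± 0.23, adjusted p = 0.314). The groups did not overlap for either gene, and neither passed the test. Abcb1a, the P-glycoprotein efflux pump, overlapped, at 14.2, 15.4 and 9.0 CPM against 9.94 and 12.3 CPM.

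Endothelial identity genes lay closer to 0. Pecam1 and Esam, adhesion molecules at the junctions, had log2 fold changes of 0.00 ± 0.20 and 0.03 ± 0.18, and Cdh5, the VE-cadherin of those junctions, 0.15 ± 0.17. Among receptors, the VEGF receptors Flt1 and Kdr stood at 0.16 ± 0.16 and -0.15 ± 0.24, and Tie1 and the angiopoietin receptor Tek at 0.26 ± 0.17 and -0.40 ± 0.29. Ocln, Ly6c1, Ly6a, Emcn and Itm2a lay between -0.24 and 0.12. Not one of these 12 genes had an unadjusted p under 0.05. Itm2a was lower without overlap by a narrow margin, with 11.3, 11.7 and 10.8 CPM in wild type and 8.03 and 10.8 CPM in Bmal1-/-.

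Pericyte genes leaned lower, 5 of 6 below 0 with a median of -0.46 (-0.49 to -0.36 over 11 alternatives), and none passed the test. Vtn stood at 87.0, 85.5 and 71.9 CPM in wild type and 52.7 and 61.5 CPM in Bmal1-/- (-0.50 ± 0.13, adjusted p = 0.131). Pdgfrb, the receptor through which PDGF-B holds pericytes on the vessel, stood at 64.8, 69.1 and 62.3 against 49.3 and 57.5 CPM (-0.28 ± 0.11, adjusted p = 0.328). Both were apart between the groups. The ATP-sensitive potassium channel subunit Abcc9 stood at 1.88, 4.43 and 3.32 against 1.55 and 2.03 CPM, and aminopeptidase N, Anpep, at 7.51, 5.91 and 3.95 against 3.45 and 4.55 CPM, with overlap in each. Higd1b had -0.43 ± 0.37, and Rgs5, a brake on G-protein signals, was the 1 pericyte gene above 0, at 0.12 ± 0.16. Outside the list, 14 other mural genes tested had a median of -0.05, 4 above 0 and 10 below, with none called.

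The 3 smooth muscle genes and the 4 fibroblast genes tested were all below 0, and none passed the test. Over 11 alternatives the smooth muscle median ran from -0.73 to -0.03 and the fibroblast median from -1.04 to -0.21. The -1.04 came without the filter on low counts, where 7 fibroblast genes entered, Dcn, Lum and Ogn among them. In the alternatives that tested 4 fibroblast genes, the median ran from -0.78 to -0.21. Acta2, the actin of smooth muscle, stood at 11.3, 21.6 and 12.2 CPM in wild type and 5.22 and 10.6 CPM in Bmal1-/- (-0.91 ± 0.39, adjusted p = 0.36). The groups were apart, but wild-type replicate 2 was far above the other 2, and without it the difference was -0.54 (adjusted p = 0.557). Without Bmal1-/- replicate 1 it was -0.48. Tagln, an actin-binding protein of smooth muscle, stood at 9.04, 15.6 and 7.13 against 6.27 and 9.38 CPM, and Myl9 at 15.8, 21.8 and 15.2 against 12.3 and 19.0 CPM, both with overlap. Mgp, matrix Gla protein, an inhibitor of calcification, stood at 9.04, 8.33 and 4.71 CPM against 2.26 and 4.83 CPM (-1.04 ± 0.38, adjusted p = 0.285), and its groups just overlapped. The small proteoglycan Bgn stood at 11.3, 27.7 and 13.3 against 9.44 and 12.7 CPM (-0.65 ± 0.41, and -0.13 without the high wild-type replicate 2). The GABA and taurine carrier Slc6a13 had -0.41 ± 0.41 and the transcription factor Foxc1 -0.14 ± 0.19. Dcn was listed at 0.487, 1.28 and 0.485 CPM in wild type and 0.282 and 0.420 CPM in Bmal1-/-.

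**Figure D2:**
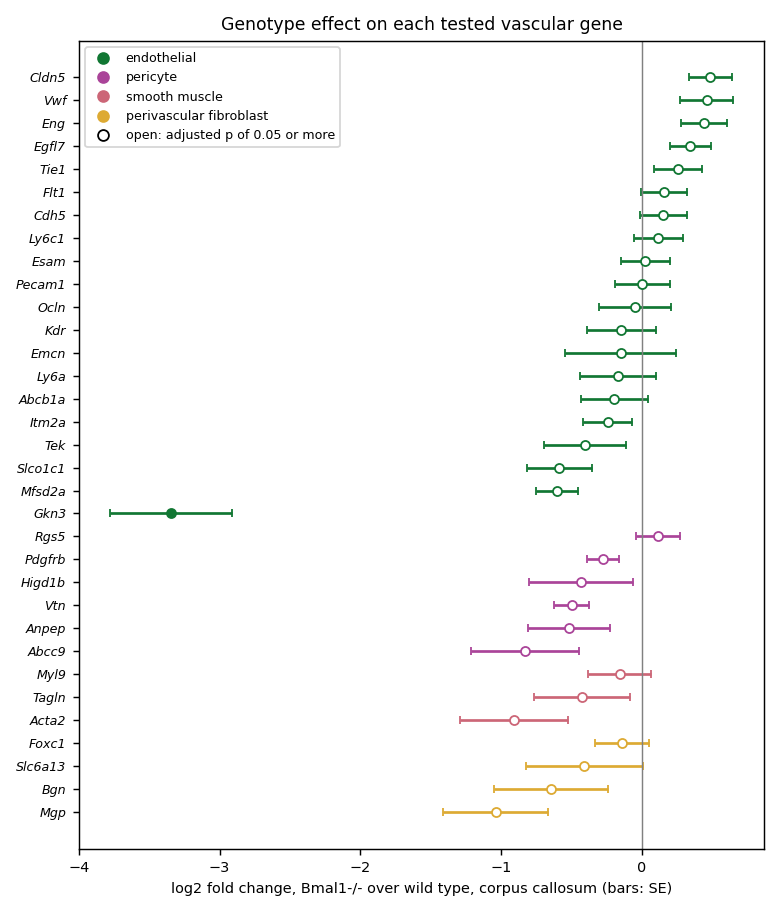
Log2 fold change of callosum labelled Bmal1-/- over wild type (horizontal axis) with its SE for the 33 tested vessel genes, grouped by role and coloured by it. Gkn3, at -3.34, is the only filled point and so the only gene past the threshold, and all 7 smooth muscle and fibroblast genes lie left of 0.

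Counts of genes whose groups were apart do not set the list off from other genes: 2 of 33 were higher and 7 lower without overlap, beside 13.7% and 18.7% of all genes. Library by library, the summed endothelial level was 434, 491 and 362 CPM in wild type and 439 and 529 CPM in Bmal1-/-, and the groups overlapped. Summed pericyte genes stood at 179, 183 and 157 against 123 and 145 CPM, with no overlap. Most of that sum was Vtn and Pdgfrb, which averaged 81.5 and 65.4 of 173 CPM in wild type. The sum of the 16 other mural genes overlapped, at 286, 336 and 278 against 271 and 333 CPM. The sums of the 3 smooth muscle genes (36.1, 59.0 and 34.6 against 23.8 and 39.0 CPM) and of the 7 fibroblast genes (30.9, 46.4 and 25.3 against 18.4 and 25.9 CPM) overlapped.

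Other marker lists varied too, with peaks in different libraries. Striatal sums were highest in wild-type replicate 2, choroid plexus sums in replicate 3, and fibroblast and meningeal sums in replicate 1. In wild-type callosum, replicate 2 was the highest of the 3 libraries for 24 of 33 vessel genes, 17 of 20 endothelial ones among them, against 38.2% of all genes, and it is the library with 3919 CPM of striatal markers. All 10 striatal genes were below 0 in Bmal1-/-, with a median of -1.21 and none called. Striatal sums were 1352, 3919 and 2273 CPM in wild type and 1195 and 1543 CPM in Bmal1-/-, and the groups overlapped. Choroid plexus markers summed to 25 CPM at the lowest and 188 at the highest in wild type, and to 16 and 12.7 CPM in Bmal1-/-, and 7 of 7 tested were below 0. Other fibroblast and meningeal genes, 16 in number, summed to 844, 621 and 519 CPM against 281 and 418 CPM. Most of that sum was Ptgds, a prostaglandin D synthase, and the cells that made it were not tested. Without Ptgds the sum was 182, 152 and 102 CPM against 114 and 149 CPM, and the groups overlapped. The part of these markers in the pericyte, smooth muscle and fibroblast values was not tested.

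**Figure D3:**
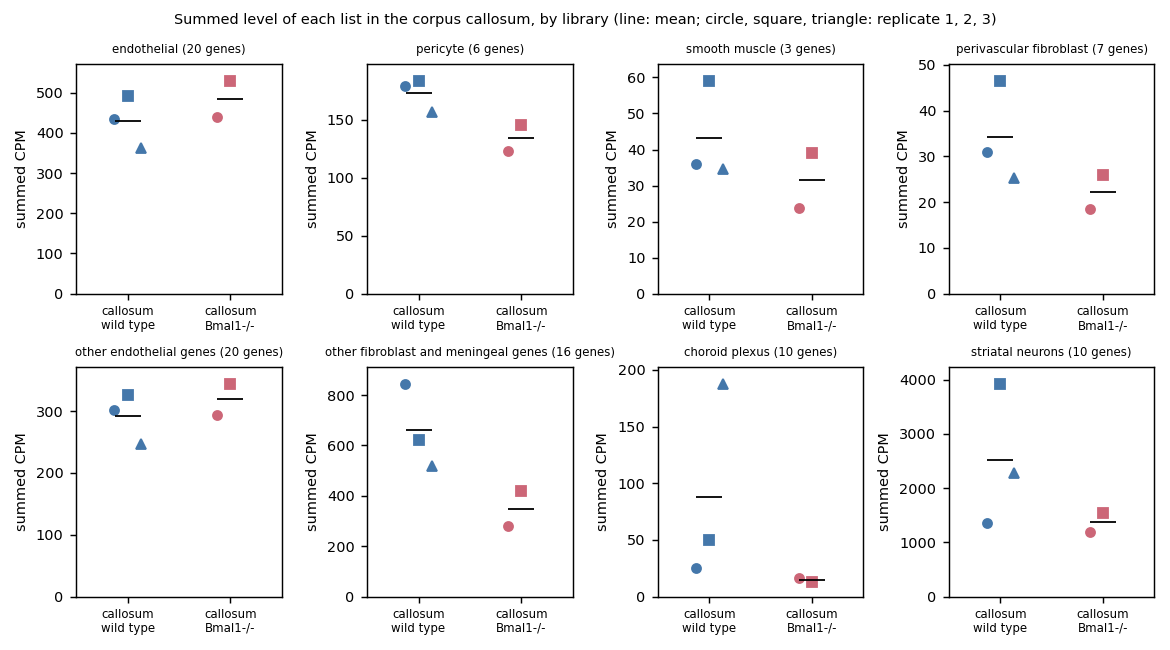
Summed CPM (vertical axes, from 0) of the 4 roles and of 4 other marker lists in each callosum library, with a line at the group mean. Endothelial sums overlap between the genotypes and pericyte sums do not, while striatal markers peak at 3919 CPM in wild-type replicate 2 and choroid plexus markers at 188 CPM in wild-type replicate 3.

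The pathways around these genes showed few calls in the callosum. Of 12 tested VEGF, angiopoietin and PDGF ligands and receptors, none passed the test and the median was 0.10. Pdgfb, the endothelial ligand of Pdgfrb, stood at 65.1, 60.3 and 61.6 CPM in wild type and 71.5 and 65.4 CPM in Bmal1-/-, and Vegfa at 139, 121 and 140 against 92.9 and 132 CPM. The 15 genes of endothelial Wnt signalling, which induces the barrier, had none called and a median of 0.11. None of 10 tight junction genes was called either, with 8 below 0 and a median of -0.16, and none of 11 TGF-beta and BMP genes, with a median of 0.05. Of 13 barrier transporters, 1 rose: Slc38a3, a glutamine carrier also made by astrocytes, at 121, 142 and 130 against 229 and 188 CPM (0.68 ± 0.12, adjusted p = 0.0411, called in 4 of 11 alternatives). Slco1a4, a carrier related to Slco1c1, stood at 1.04, 1.07 and 0.554 CPM against 0.0705 and 0.140 CPM, the latter under the floor of 3 counts, and did not pass (adjusted p = 0.11).

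Basement membrane genes, the sheet under the endothelium, held 2 rises among 11 tested, with 9 above 0 and a median of 0.28. Sparc, a matrix glycoprotein, stood at 191, 195 and 188 CPM in wild type and 305 and 329 CPM in Bmal1-/- (0.74 ± 0.09, adjusted p = 0.00867), a call that ended without wild-type replicate 3 and in 1 model of all libraries. Col4a1, a chain of collagen IV, stood at 82.1, 81.0 and 76.5 against 112 and 132 CPM (0.63 ± 0.11, adjusted p = 0.0335, called in 5 of 11 alternatives). Among the 15 other fibroblast and meningeal genes tested, Fbln1, the matrix protein fibulin-1, fell, at 20.7, 23.0 and 15.7 against 8.88 and 9.38 CPM (-1.10 ± 0.19, adjusted p = 0.0356, called in 5 of 11 alternatives). None of the 18 other endothelial genes tested was called, and their median was 0.18. Venous endothelium (6 tested) and permeability genes (7 tested) had no call, with medians of 0.07 and 0.06. In the lists of other brain cells, 1 of 10 astrocyte genes was lower (Aldh1l1, -0.55 ± 0.10, adjusted p = 0.0491) and 1 of 10 progenitor genes higher (Fabp7, 3.27 ± 0.37, adjusted p = 0.00512).

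In neurospheres, all 3 smooth muscle genes stood higher in the libraries labelled Bmal1-/-, each without overlap, while no vessel gene passed the edgeR test. The genotype contrast called 0.00716% of 13968 genes, which is 1 gene, Nr1d2. Of the 36 genes 23 could be tested, with a median of 0.03, 12 above 0 and 11 below, beside -0.01 over all genes. Those with an unadjusted p under 0.05 were the 3 smooth muscle genes, all higher, beside 1.95% of all genes higher. Without overlap, 3 vessel genes were higher, beside 6.28% of all genes, and 1 was lower, beside 5.74%.

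Acta2 had 7.29, 6.46 and 5.86 CPM in wild-type neurospheres and 23.9, 15.8 and 15.8 CPM in those labelled Bmal1-/- (log2 fold change 1.5 ± 0.24, SE; 2.83-fold; edgeR adjusted p = 0.218). Tagln had 8.09, 12.5 and 9.67 against 23.5, 16.8 and 22.9 CPM (1.06 ± 0.23, adjusted p = 0.776). Myl9 had 3.58, 4.61 and 3.90 against 11.4, 6.20 and 6.22 CPM (0.98 ± 0.30, adjusted p = 0.798). For each gene every Bmal1-/- library lay above every wild-type one, and the library that stood apart, Bmal1-/- replicate 1, was the highest. Without it Acta2 still differed by 1.27 (adjusted p = 0.12) and Tagln by 0.98 (adjusted p = 0.725). The difference of Myl9 ran from 0.62 to 1.13 over 12 alternatives. DESeq2, run as the alternative, called 0.243% of genes and among them Acta2 (adjusted p = 2.67e-05) and Tagln (adjusted p = 0.0304). The adjusted p of Acta2 ran from 2.67e-05 to 0.976 over 12 alternatives.

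The mural genes outside the list, of which 12 could be tested, had a median of -0.30, with 4 above 0 and 8 below. Calponin, Cnn1, stood at 0.805, 0.452 and 0.488 CPM in wild type and 0.310, 0.349 and 0.175 CPM in Bmal1-/- (-1.05 ± 0.45, adjusted p = 0.798). Smooth muscle myosin, Myh11, stood at 0.894, 0.723 and 1.20 against 0.442, 0.655 and 0.789 CPM, with overlap. Lmod1, a leiomodin of smooth muscle, lay above 0 (0.28 ± 0.32). These 3 were named after their values were seen. Endothelial genes were uneven in the same cultures, with a sum of 61.2 to 84.4 CPM per library. Ly6c1 and Gkn3 had no count in any of the 6 libraries, Tie1 had 2 counts in 1 library, and Cldn5 had 0 to 2 counts per library. Others were present: in wild-type neurospheres Mfsd2a averaged 31.9, Itm2a 13.4, Flt1 7.79, Egfl7 6.66, Slco1c1 4.92, Kdr 3.21 and Vwf 3.13 CPM.

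**Figure D4:**
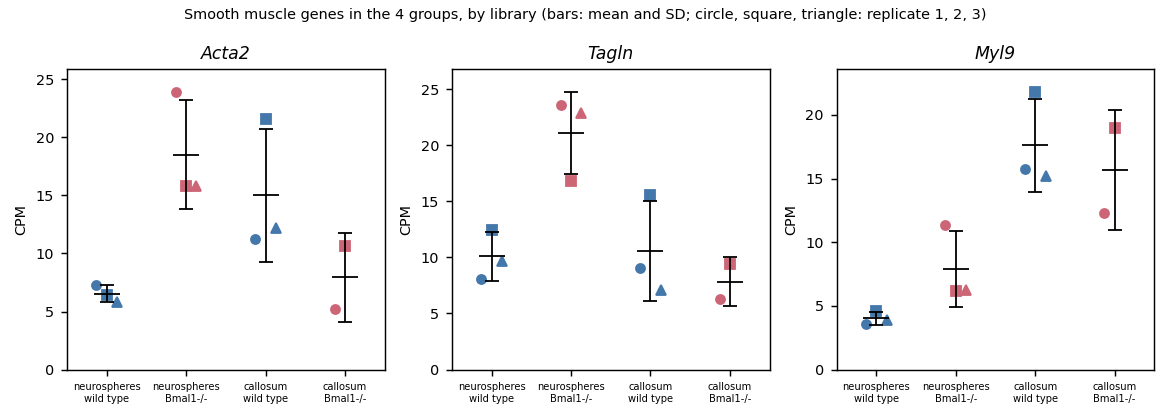
CPM (vertical axes, from 0) of Acta2, Tagln and Myl9 in each library of the 4 groups, with the mean and SD. In neurospheres all Bmal1-/- points lie above all wild-type points for the 3 genes, from 15.8 to 23.9 against 5.86 to 7.29 CPM for Acta2, and in the callosum the Bmal1-/- points of Acta2 lie below the wild-type ones.

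Of the remaining tested vessel genes in neurospheres, Pdgfrb alone had groups apart. It stood at 2.59, 2.85 and 2.00 CPM in wild type and 1.42, 1.61 and 1.80 CPM in Bmal1-/- (-0.62 ± 0.28, adjusted p = 0.798). Mfsd2a stood at 27.4, 32.1 and 36.1 against 41.8, 37 and 36 CPM, and Bgn at 17.3, 37.7 and 39.1 against 26.8, 31.3 and 29.3 CPM, with overlap in both. Replicates were far apart for several endothelial genes in culture: Slco1c1 ran from 2.19 to 7.73 CPM within wild type and Kdr from 0.752 to 5.22 CPM within Bmal1-/-. The 11 endothelial genes tested lay between -0.72 and 0.27, and the 4 pericyte genes between -0.63 and 0.35. The other 13 genes were too low to test: Cldn5, Cdh5, Tek, Abcb1a, Ly6a, Emcn, Vtn, Higd1b, Lum, Slc6a13, Ly6c1, Gkn3 and Tie1.

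Whether the genotype difference itself differed between tissue and culture was tested as an interaction, callosum minus neurospheres. No vessel gene of 35 tested passed the edgeR test, beside 0.0131% of 15322 genes. At an unadjusted p under 0.05 there were 4 vessel genes, all lower, beside 2.79% of all genes: Acta2 (-2.42 ± 0.48, adjusted p = 0.21), Mfsd2a (-0.88 ± 0.24, adjusted p = 0.727), Tagln (-1.50 ± 0.45, adjusted p = 0.808) and Myl9 (-1.15 ± 0.42, adjusted p = 0.999). DESeq2 called 0.241% of genes and Acta2 among them (adjusted p = 0.00137). These 4 genes had opposite signs in the 2 sources by the main test, which did not call the difference. Myl9, at -0.16 in the callosum, was above 0 there in some alternatives (up to 0.12).

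Tissue and culture were last set against each other within each genotype. In wild type, 27 of 34 tested vessel genes were higher in the callosum and 1 lower, beside 42% and 43.8% of all 14733 genes, with a median log2 difference of 3.39 beside -0.06. In Bmal1-/-, 23 of 32 were higher and 4 lower, beside 35.1% and 37.5% of 14883 genes, with a median of 3.31 beside -0.08. These 2 comparisons share no library. Scaling by library totals in place of TMM moved the median of all genes by -0.45, and turned the direction of Tagln alone, uncalled, in wild type and of no gene in Bmal1-/-.

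Some endothelial genes had few counts or none in culture, and others were present there. Ly6c1 had 552, 524 and 390 counts in wild-type callosum and none in wild-type neurospheres, at least 749-fold higher taking 3 counts over the group as the floor. Tie1 was at least 438-fold and Gkn3 at least 90.5-fold higher by the same floor. Cldn5 had 2166 counts over the wild-type callosum libraries and 2 over the wild-type neurosphere libraries, a ratio of 1661 (counting interval 459 to 13721). Cdh5 was higher by 8.41 ± 0.38 and Vtn by 7.88 ± 0.23 on the log2 scale, with adjusted p = 3.35e-08 and 4.72e-09. Rgs5, Pdgfrb, Eng, Pecam1 and Esam were higher by 4.17 to 5.71. The gap was smaller for Vwf (3.32 ± 0.20), Flt1 (2.82 ± 0.20), Egfl7 (1.84 ± 0.30) and Kdr (1.31 ± 0.42), which had 210, 522, 447 and 215 counts over the wild-type neurosphere libraries, and all 4 passed the test.

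A few vessel genes were lower in tissue than in culture or did not pass the test between them. Mfsd2a was lower in the callosum in wild type (-0.38 ± 0.14, adjusted p = 0.0285), a call that ended in 6 of 12 alternatives, RLE scaling and DESeq2 among them, and lower in Bmal1-/- as well (-1.25 ± 0.22, adjusted p = 0.00193). Bgn differed by -0.83 ± 0.38 in wild type (adjusted p = 0.0643) and was lower in Bmal1-/- (-1.38 ± 0.24, adjusted p = 0.0019). For Itm2a (-0.24 ± 0.20), Anpep (-0.18 ± 0.31), Dcn (-0.14 ± 0.51), Slco1c1 (0.89 ± 0.39) and Tagln (0.08 ± 0.29) the difference between wild-type sources did not pass the test, though Slco1c1 and Bgn each passed in 5 of 12 alternatives. Counted per kilobase, Mfsd2a at 14.8, Bgn at 11.8 and Itm2a at 7.69 CPM per kb were the highest 3 of the 36 in wild-type neurospheres, and the ranges of the first 2 over libraries overlapped (12.7 to 16.8 and 6.49 to 14.7).

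Acta2 took opposite sides by genotype. In wild type it was higher in the callosum, at 11.3, 21.6 and 12.2 CPM against 7.29, 6.46 and 5.86 CPM in neurospheres (1.21 ± 0.25, adjusted p = 0.00143). In Bmal1-/- it was lower in the callosum, at 5.22 and 10.6 CPM against 23.9, 15.8 and 15.8 CPM (-1.20 ± 0.39, adjusted p = 0.0279), a call that ended without Bmal1-/- callosum replicate 1 (-0.77, adjusted p = 0.165). Tagln was lower in the callosum in Bmal1-/- (-1.41 ± 0.30, adjusted p = 0.00477; 0.0504 without that library). Myl9 was higher in the callosum in both genotypes, by 2.14 ± 0.20 in wild type and by 1.00 ± 0.37 in Bmal1-/- (adjusted p = 0.0448, ended in 5 of 11 alternatives). The test of the difference between these pairs is the interaction above, which the main test did not call.

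**Figure D5:**
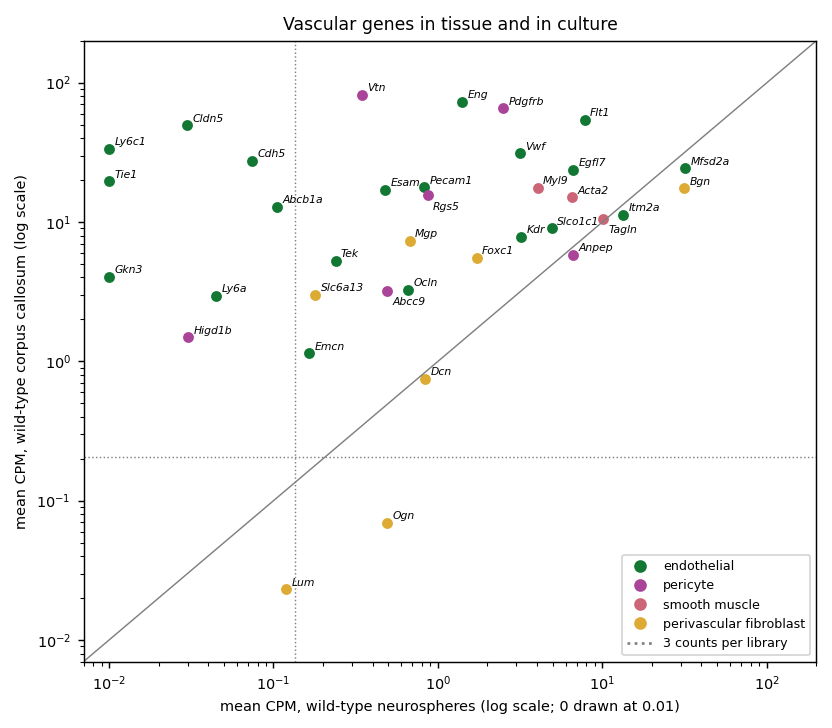
Mean CPM of the 36 vessel genes in wild-type callosum (vertical) against wild-type neurospheres (horizontal), both on log scales, with 0 drawn at 0.01, dotted lines at 3 counts and a diagonal of equal levels. Ly6c1, Tie1 and Gkn3 sit at the left edge with no count in culture, while Mfsd2a, Bgn, Itm2a and Anpep are among the genes below the diagonal.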

How the data were processed

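Per the labels' protocols, RNA was extracted with TRIzol, enriched with oligo(dT) or depleted of rRNA (which is not said), primed with random hexamers and sequenced on the BGISEQ-500. Reads were aligned with STAR 2.7.1a to mm10, per the submitters' processing notes, and no source used here names the annotation behind the counts. The deposited files hold the authors' raw read counts per gene symbol. The strand-blind column was used, since the first strand took 49.6% to 50.8% of gene counts. The 4 rows that name no gene entered neither library sizes nor tests: unmapped reads were 7.77% to 22.6%, reads outside genes 8.55% to 16.6% and ambiguous reads 0.772% to 1.40% of all reads. Reads mapping to several places are listed at 0.

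The 36 genes and the other gene lists were chosen with earlier results of these data known. Groups came from the sample titles. All genes kept by filterByExpr were fitted with edgeR 4.0.16 in R 4.3.3 (TMM, glmQLFit with robust = TRUE, glmQLFTest, two-sided, Benjamini-Hochberg over all genes), each comparison on its own groups and the interaction on all 11 libraries. SE is the log2 fold change divided by the square root of F, and the threshold is an adjusted p of 0.05. Scripts were tested on simulated data. Alternatives were RLE scaling, no filter, DESeq2 1.42.0, limma-voom 3.58.1, a replicate block, 1 model of all 11 libraries and leaving out each library. Lengths are from GENCODE M21 and positions and promoters from RefSeq GRCm38.p6. Named genes were all 36, the genes of each other list called between genotypes (at most 3 per direction), Arntl, Nr1d2 and Dbp. Other genes named were picked after their values were seen. Intervals and floors cover counting error only.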

Additional observations from a re-analysis of the deposited data

How the results depend on the processing

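Over the alternatives, 360 of 363 vessel gene values in the callosum, 274 of 276 in neurospheres and 559 of 560 in the interaction stayed on their side of the threshold. Nearly all of these were uncalled genes that stayed uncalled, since the main fits called 1 vessel gene in the callosum and 0 in the other 2. Between sources, where most calls lay, 389 of 408 values in wild type and 329 of 352 in Bmal1-/- stayed on their side. No called value changed sign. Numbers of called genes moved more. In the callosum, 129 genes became 224 without a filter, 330 with DESeq2, 33 in 1 model of all 11 libraries and 27 to 192 with a library left out (27 without wild-type replicate 3, 49 without Bmal1-/- replicate 1, 73 without wild-type replicate 2), and the 1 vessel gene became 0 in that 1 model and 0 to 1 with a library left out. In neurospheres, 1 gene became 5 without a filter, 34 with DESeq2, 2 with limma-voom, 19 in 1 model and 1 to 5 with a library left out (5 without Bmal1-/- replicate 1), and 0 vessel genes became 2 with DESeq2. In the interaction, 2 genes became 37 with DESeq2 and 1 to 10 with a library left out (10 without Bmal1-/- neurosphere replicate 1), and 0 vessel genes became 1 with DESeq2.

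No label pairs the samples by replicate number, and deviations within groups of 2 or 3 libraries cannot settle it. Same-numbered libraries had correlations of deviations of 0.04 and 0.01 between callosum genotypes. Between neurosphere genotypes they had 0.27, -0.00 and 0.28, where not every library was closest to its own number. Between wild-type sources they had -0.02, 0.05 and -0.00. The 2 pairs between Bmal1-/- sources had 0.11 and 0.13, with both callosum libraries closest to their own number, but no label ties them. Deviations of 2 libraries from their own mean mirror each other, so these 2 matches are not independent. With the replicate block, callosum calls were 131 genes and 2 vessel genes (Gkn3, and Acta2 at adjusted p = 0.0375), neurosphere calls 2 and 0, interaction calls 1 and 0, and source calls 12557 and 30 in wild type and 10607 and 30 in Bmal1-/-. With 2 Bmal1-/- callosum libraries, spread in that group rests on 1 difference, and levels under 3 counts were not resolved at this depth.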

Other observations

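Single ligands that act on vessels differed widely between wild-type neurospheres and callosum, in both directions. Vegfa, the main growth factor for endothelium, stood at 1165, 2693 and 3104 CPM in wild-type neurospheres and 139, 121 and 140 CPM in wild-type callosum (log2 difference, callosum minus neurospheres, -4.11 ± 0.34, edgeR adjusted p = 2.02e-06). Angpt2, a ligand of the receptor encoded by Tek, stood at 100, 62.6 and 51.6 CPM against 0.487, 0.941 and 0.693 CPM (-6.63 ± 0.35, adjusted p = 9.39e-08). Angpt1, the other main ligand of that receptor, was lower in the callosum too (-4.38 ± 0.32, adjusted p = 8.29e-07). Pdgfb went the other way, at 1.12, 0.136 and 0.666 CPM against 65.1, 60.3 and 61.6 CPM (6.60 ± 0.36, adjusted p = 1.16e-07). Of the 13 tested ligands and receptors of this list, 5 were higher and 5 lower in wild-type callosum, with a median of 0.10, beside 42% and 43.8% of all genes. These 4 ligands were picked after their values were seen.

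Lists of carriers and matrix genes were mostly lower in tissue than in culture. Of 12 barrier transporters tested in wild type, 1 was higher in the callosum and 10 lower, and of 11 basement membrane genes 1 was higher and 8 lower, beside 42% and 43.8% of all genes. Tfrc, the transferrin receptor, stood at 242, 277 and 256 CPM in neurospheres and 3.41, 3.36 and 2.77 CPM in the callosum, while Slc22a8, an organic anion carrier of barrier endothelium, stood at 0.0447, 0.0452 and 0.133 against 24.8, 23.6 and 19.6 CPM.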
